A study of Mus musculus with 9 samples.

Results

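Carbonic anhydrase genes were described in the border zone of infarcted mouse hearts. They were taken as the rows of the deposited value table whose annotated symbol was Car1, Car2, Car3, Car4, Car5b, Car8, Car9, Car12, Car13 or Car14, and the row of each gene was chosen by its mean signal, the brightest being kept. All 10 were present, of 19505 genes in all, and each had a single row, so signal decided nothing. The family was put together with earlier results of these arrays known, among them the higher Car4 signal after cell injection, and that result is given here as a description.

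The tissue was the peri-infarct region, the myocardium bordering the scar, of female SCID mice (a strain without functional T and B lymphocytes) aged 80 to 100 days. In every mouse, controls included, the left anterior descending coronary artery had been tied off, and tissue was taken 4 weeks later. The mice had been injected with iCM-Ex (exosomes, the small vesicles that cells release, precipitated from beating cardiomyocytes that had been differentiated from induced pluripotent stem cells), with iCM (such cardiomyocytes themselves) or with saline. Each group had 3 arrays, labelled as biological replicates. The sources used here state neither the dose nor the number of cell preparations nor the species of the stem cells.

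Carbonic anhydrases are zinc enzymes that interconvert carbon dioxide and water with bicarbonate and protons. They work beside bicarbonate, proton and lactate carriers to move acid out of muscle cells and to pass carbon dioxide to the blood. Car4, Car9, Car12 and Car14 face the outside of the cell, Car1, Car2, Car3 and Car13 lie in the cytosol, and Car5b lies in mitochondria. Car8 is a related protein that has lost the enzyme activity. In mouse heart Car4 and Car14 sit on the cardiomyocyte surface membrane, and Car4 is also held by a lipid anchor on the inner face of capillaries.

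Signals are the authors' deposited values, taken from their range to be on a log2 scale, on which a difference of 1 is a doubling. The levels of different genes come from different probes and are not set against each other. A group mean is given with the standard deviation (SD, n = 3), and a change is a difference of group means with its standard error (SE) from a limma fit over all 19505 genes. A gene was called where the p-value, adjusted by the Benjamini-Hochberg method over all genes, was under 0.05. An exact permutation test of 3 against 3 arrays cannot give a p below 0.1.

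The labelled tissue fitted its markers: the mean of 12 cardiomyocyte genes was 16.27 to 16.69 in iCM-Ex, 16.02 to 17.90 in iCM and 16.52 to 17.44 in saline. Markers of other tissues stood high on 3 arrays. For 12 lung epithelium genes the mean reached 8.25 on iCM-Ex replicate 3 and 11.19 on iCM replicate 1, and was between 4.31 and 5.87 on the other 7 arrays. In iCM replicate 2 the mean of 16 skeletal muscle genes was 11.21, against 5.15 to 6.38 elsewhere, and that of 13 adipocyte genes 9.42, against 5.97 to 6.96 elsewhere. The median of the negative control probes was 4.76 to 4.95 on iCM-Ex arrays, 5.11 to 5.56 on iCM arrays and 5.07 to 5.48 on saline arrays. It is no floor, since the lower quartile of genes was 4.03 to 4.31. Of the members 5 (Car4, Car5b, Car8, Car13 and Car14) lay above it on all 9 arrays, Car2 and Car3 on 8, Car9 on 1, and Car1 and Car12 on none. Changes of these last 3 genes are changes near background, and their sizes are uncertain.

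**Figure D1:**
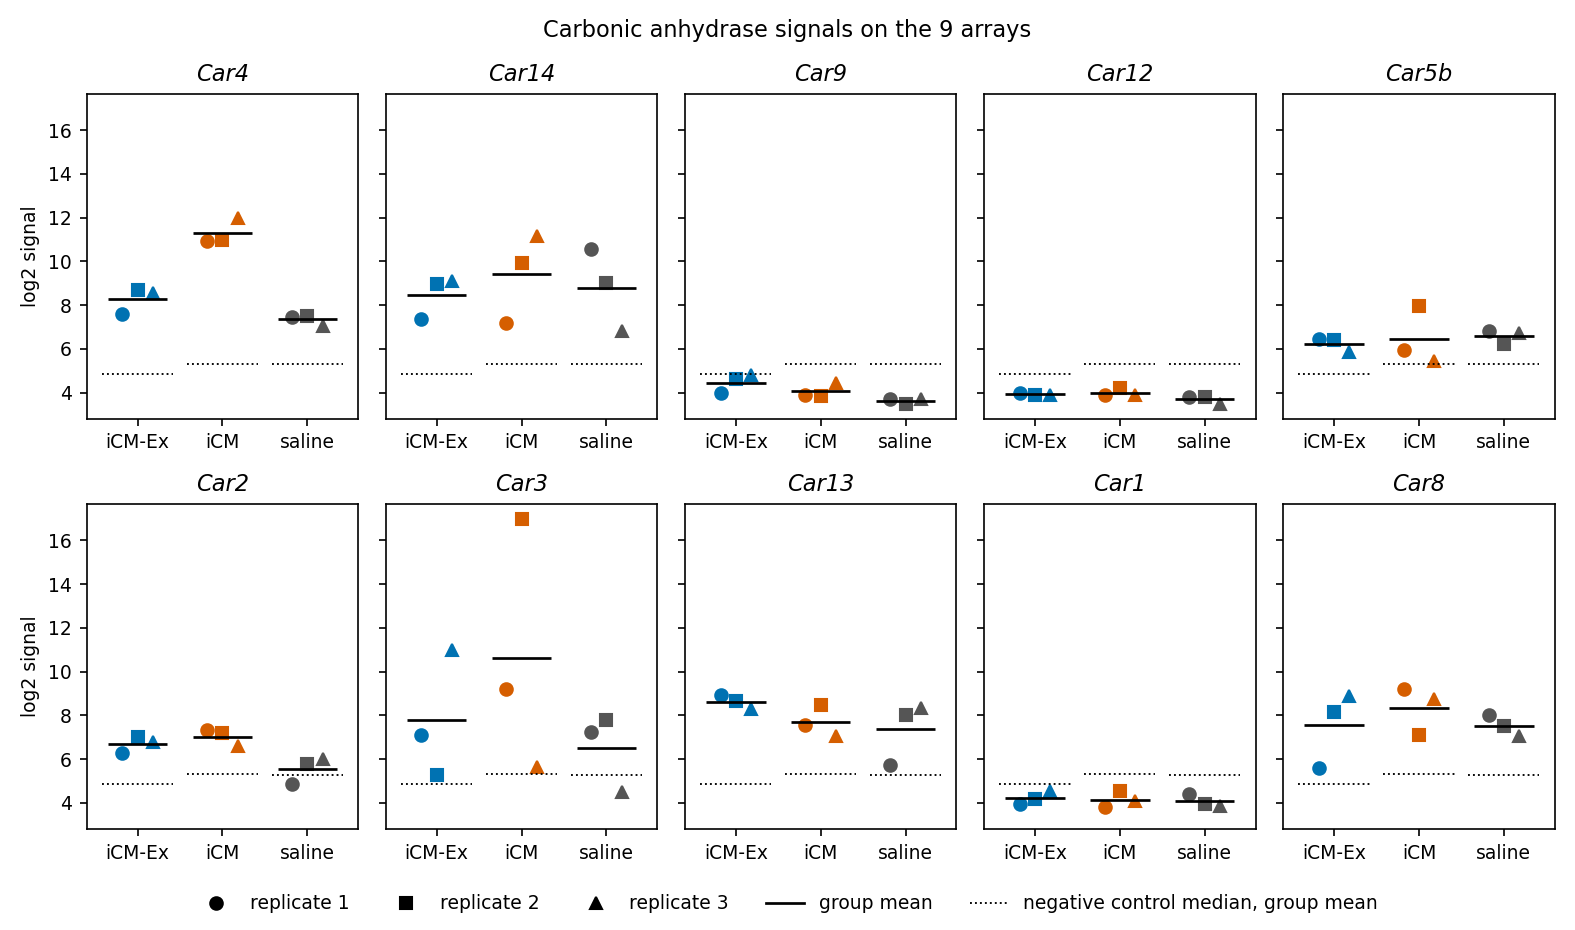
Log2 signal (y axis) of each carbonic anhydrase gene on the 9 arrays by group (x axis), with symbols for replicates, solid bars for group means and dotted bars for the mean of the negative control medians. The 3 iCM points of Car4 lie at 10.92 to 11.96, above every other Car4 point, and a single iCM point of Car3 lies at 17.00.

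Among the enzymes that face the outside of the cell, Car4 was higher in iCM hearts than in either other group. Its signal was 7.60, 8.69 and 8.57 in iCM-Ex, 10.92, 11.00 and 11.96 in iCM and 7.46, 7.52 and 7.03 in saline. Every iCM array lay above every iCM-Ex array, and every iCM-Ex array above every saline array. Group means were 8.29 ± 0.60 in iCM-Ex, 11.30 ± 0.58 in iCM and 7.34 ± 0.27 in saline. Car4 is a gene on chromosome 11, from base 84957754 to 84966054 of GRCm38.p6.

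In iCM relative to saline, Car4 rose by 3.96 ± 0.39 (log2, SE), a 15.5-fold difference with a 95% interval of 3.09 to 4.82 in log2 units (limma adjusted p = 0.00325). It was the called member of this contrast, 1 of 10, where limma called 3.67% of all genes. Its adjusted p stayed below 0.05 whichever single array was left out, with a highest value of 0.0177 without saline replicate 2. An F test over the 3 groups called Car4 (limma adjusted p = 0.00748) and no other member, and it called 3.32% of all genes.

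Of the 3 iCM arrays, replicates 1 and 2 carried markers of other tissues, with Car4 at 10.92 beside the lung markers and at 11.00 beside the fat and muscle markers. The highest Car4 signal, 11.96, was on iCM replicate 3, where the means of lung epithelium, adipocyte and skeletal muscle genes were 4.86, 6.96 and 5.78. That adipocyte mean was below only the 9.42 of iCM replicate 2. Of the 13 adipocyte genes, Lpl (16.65) and Pnpla2 (16.57), named after their values were seen, were highest on iCM replicate 3, and 10 were highest on iCM replicate 2. On iCM-Ex replicate 3, with the lung mean of 8.25, Car4 was at 8.57, and on iCM-Ex replicate 2, with a lung mean of 4.65, it was at 8.69. Without iCM replicate 1 and iCM-Ex replicate 3, the 2 arrays with high lung means, the change against saline was 4.14 (limma adjusted p = 0.0129). Leaving out iCM replicate 2 as well left a single iCM array, whose spread was taken from the other groups, and gave 4.63 with an adjusted p of 0.0719 in limma, a fit in which 6 genes in all were called. The quality of the arrays moved with the groups. Control separation, the median positive minus the median negative control signal, was 3.63 to 4.01 in iCM-Ex, 2.47 to 3.21 in iCM and 3.26 to 3.56 in saline. With it as a covariate the Car4 change was 4.27 (limma adjusted p = 0.0319).

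In iCM-Ex relative to iCM, Car4 fell by 3.01 ± 0.39, with a 95% interval of −3.88 to −2.14 (limma adjusted p = 0.0146). It was the 1 called member, where limma called 1.07% of all genes, and also the 1 member whose arrays did not overlap, as for 20.2% of all genes. This call ended without iCM-Ex replicate 2 (limma adjusted p = 0.0843) and without iCM-Ex replicate 3 (0.085), while the change remained at −3.21 and −3.15. It also ended without the 2 arrays with high lung means (−3.34, limma adjusted p = 0.0754), without all 3 arrays with markers of other tissues (−3.82, 0.164), with control separation as a covariate (−3.53, 0.382), and in a fit of the iCM-Ex and iCM arrays alone (limma adjusted p = 0.0527).

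In iCM-Ex relative to saline the Car4 difference was 0.95 ± 0.39, with a 95% interval of 0.08 to 1.81, and was not called (limma adjusted p = 0.282). Of the 10 members limma called 0 in this contrast, where it called 0.349% of all genes. At an unadjusted p under 0.05 there were 3, Car2, Car4 and Car9, the last near background. For iCM minus saline there were 2, Car2 and Car4, and for iCM-Ex minus iCM 1, Car4. The share of all genes at that unadjusted p was not counted, so whether these counts of 10 are many cannot be told. The comparisons of iCM-Ex and of iCM with saline share the saline arrays.

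The Car4 promoter is shown because Car4 is the member whose signal differed. The sequences, credited to RefSeq (GRCm38.p6), cover the 250 bases before the start that its promoter table gives, and 5 members had an entry, Car4, Car5b, Car9, Car12 and Car14. Car9 and Car14 are set beside it as membrane enzymes of the same family that were not called. Car12 is another such enzyme, and the match in its window is given below without its sequence. The windows are chr11:84957504-84957753 on the plus strand for Car4, chr4:43506776-43507025 on the plus strand for Car9 and chr3:95904686-95904935 on the minus strand for Car14. Those of Car4 and Car9 end just before the annotated gene. That of Car14 lies within the annotated span of its gene, as does that of Car12, so the windows are not placed alike. Capitals mark matches to any of 6 motifs searched on both strands.
Car4: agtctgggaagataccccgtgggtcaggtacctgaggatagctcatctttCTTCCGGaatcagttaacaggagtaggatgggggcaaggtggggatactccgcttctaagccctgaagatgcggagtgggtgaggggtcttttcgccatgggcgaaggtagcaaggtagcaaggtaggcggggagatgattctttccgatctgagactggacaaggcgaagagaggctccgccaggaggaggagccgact
Car9: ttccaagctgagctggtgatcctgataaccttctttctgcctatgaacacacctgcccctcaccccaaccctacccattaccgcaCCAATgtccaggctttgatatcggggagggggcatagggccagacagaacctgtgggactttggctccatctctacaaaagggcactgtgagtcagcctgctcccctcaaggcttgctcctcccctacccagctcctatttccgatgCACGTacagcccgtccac
Car14: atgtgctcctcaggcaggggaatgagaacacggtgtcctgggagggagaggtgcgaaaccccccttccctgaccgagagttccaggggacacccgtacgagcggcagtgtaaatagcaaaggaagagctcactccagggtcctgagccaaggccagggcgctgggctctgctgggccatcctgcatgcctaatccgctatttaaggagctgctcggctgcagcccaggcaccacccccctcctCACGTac

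The motifs for general promoter factors were TATAAA, known as the TATA box, then GGGCGG, known as the GC box, and the box with the letters CCAAT. Those for regulated factors were the hypoxia response core, written ACGTG, the site of GATA factors, written AGATAA, and the site of ETS factors, written CCGGAAG. No matches overlapped in the windows shown. The Car4 window held 1 of them, the ETS letters on the minus strand at 200 to 194 bases before the start, which 6.91% of all 32851 promoter windows hold. Car9 and Car14 each held the hypoxia core on the minus strand, at 18 to 14 and at 7 to 3 bases before the start, as did 16.6% of all windows. Car9 also held CCAAT, found in 33.9% of windows, at 165 to 161 bases before the start. The Car12 window held the GC box on the minus strand at 35 to 30 bases before the start, as did 32.7% of all windows. The base composition of the Car4 and Car9 windows was alike, at 56.4% G and C each, against 62.0% for Car14 and a median of 52.4% over all windows.

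Car14 (chromosome 3, 95897768 to 95905117), a transmembrane enzyme of the muscle cell surface, varied widely within groups. Its signal was 7.36, 8.96 and 9.10 in iCM-Ex, 7.18, 9.94 and 11.15 in iCM and 10.57, 8.99 and 6.80 in saline. The groups overlapped throughout, and both iCM and saline spanned more than 3 log2 units. The difference was −0.31 ± 1.09 for iCM-Ex minus saline, 0.64 ± 1.09 for iCM minus saline and −0.95 ± 1.09 for iCM-Ex minus iCM (limma adjusted p = 0.925, 0.787 and 0.776). With 95% intervals of −2.72 to 2.10, −1.77 to 3.06 and −3.37 to 1.46, changes of Car14 by more than 1 log2 unit in either direction could not be told from none.

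Car9 (chromosome 4, 43507026 to 43513729), a transmembrane enzyme induced by low oxygen, stayed near background. Its signal was 3.97, 4.61 and 4.78 in iCM-Ex, 3.89, 3.84 and 4.44 in iCM and 3.69, 3.47 and 3.70 in saline. The saline arrays were the 3 lowest, and the 1 array above its own negative control median was iCM-Ex replicate 3. The difference was 0.83 ± 0.30 for iCM-Ex minus saline and 0.44 ± 0.30 for iCM minus saline (limma adjusted p = 0.229 and 0.452). Car12 (chromosome 9, 66712296 to 66766845), a transmembrane enzyme best known from kidney and other epithelia, lay between 3.50 and 4.19 on all arrays, below the negative control median on each. Its saline values of 3.82, 3.79 and 3.50 were again the 3 lowest, and its changes were 0.21 ± 0.25 in iCM-Ex and 0.28 ± 0.25 in iCM, not called.

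Arrays did not overlap for 4 members in iCM-Ex against saline, as for 21.7% of all genes, and for 4 in iCM against saline, as for 24% of all genes. In both contrasts these were Car2, Car4, Car9 and Car12, each higher than in saline, with the saline arrays shared. The median change of the 10 members was 0.52 in iCM-Ex and 0.54 in iCM, beside medians of 0.04 and 0.08 over all genes. For iCM-Ex minus iCM it was −0.28, beside −0.04 over all genes. Above saline were 8 members in iCM-Ex and 9 in iCM, while 53.5% and 55.5% of all genes were above it.

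**Figure D2:**
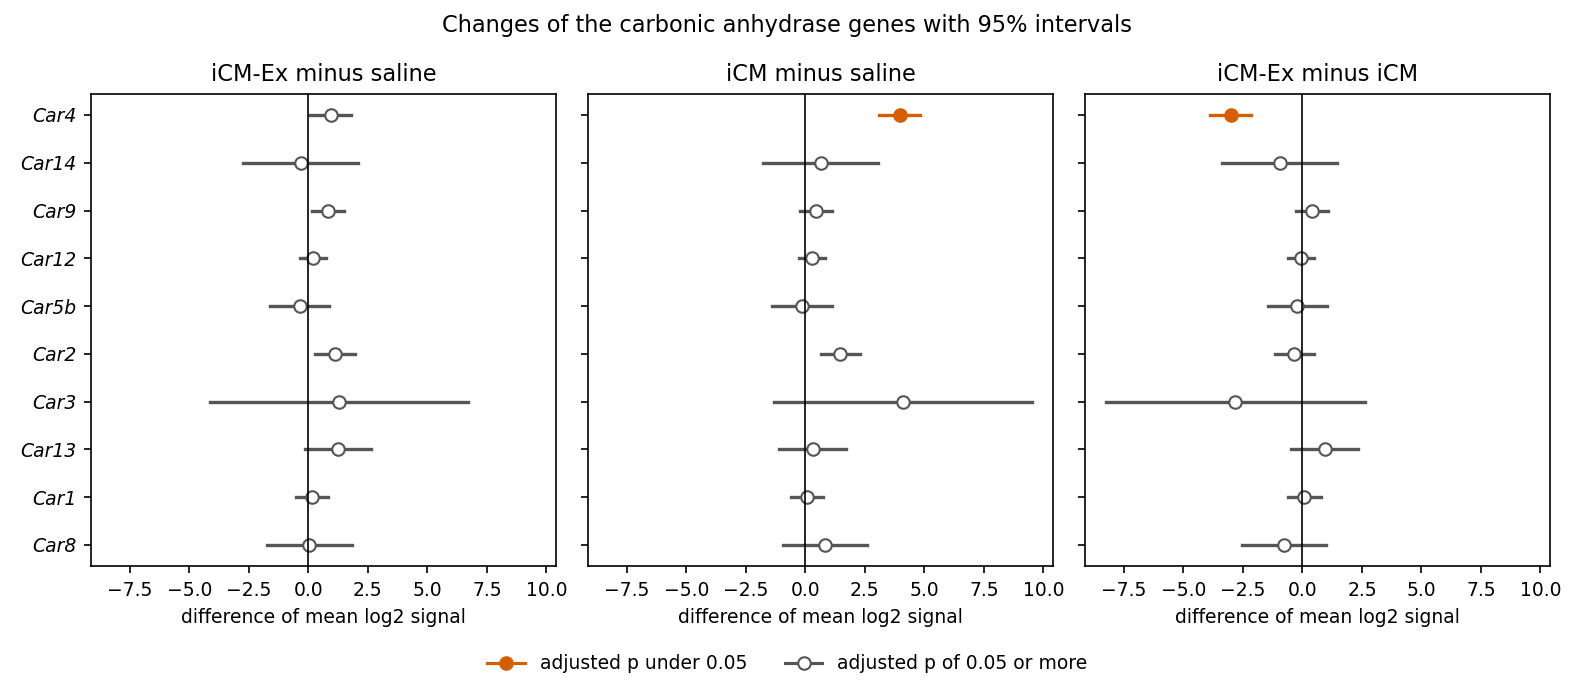
Difference of mean log2 signal (x axis) of each carbonic anhydrase gene (y axis) with its 95% interval from limma, for the 3 contrasts. Filled orange points had an adjusted p under 0.05, which holds for Car4 at 3.96 in iCM minus saline and at −3.01 in iCM-Ex minus iCM. The interval of Car3 runs from −1.32 to 9.53 in iCM minus saline.

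Of the cytosolic enzymes, Car2 was higher after both treatments without passing the threshold. Car2 is the fast and widespread form, abundant in red cells, kidney and bone-resorbing cells. Its signal was 6.27, 7.00 and 6.78 in iCM-Ex, 7.31, 7.19 and 6.57 in iCM and 4.85, 5.79 and 6.02 in saline. All 6 treated arrays lay above the 3 saline arrays, and iCM-Ex and iCM overlapped. Group means were 6.68 ± 0.38 in iCM-Ex, 7.02 ± 0.39 in iCM and 5.55 ± 0.62 in saline. The difference was 1.13 ± 0.37 for iCM-Ex minus saline (limma adjusted p = 0.196) and 1.47 ± 0.37 for iCM minus saline (0.0587), and its 95% interval in iCM was 0.64 to 2.31. After quantile normalisation the iCM change was 1.54 with a limma adjusted p of 0.0375, which would call it. Between iCM-Ex and iCM the difference was −0.34 ± 0.37, with an interval of −1.17 to 0.49 (limma adjusted p = 0.763).

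Car1 and Car2 are both known from red cells, and Car1 was near background. Its signal was 3.96, 4.17 and 4.56 in iCM-Ex, 3.82, 4.55 and 4.06 in iCM and 4.39, 3.93 and 3.87 in saline, with overlapping groups. Its changes were 0.16 ± 0.30 in iCM-Ex and 0.08 ± 0.30 in iCM, not called. Of 15 erythroid genes 7 were measured, and their mean was 5.33 to 6.17 in iCM-Ex, 5.07 to 5.75 in iCM and 4.53 to 4.97 in saline, higher on every treated array. The haemoglobin genes of that list were not analysed here, and 4 of the 7 genes lay below the negative control median on all 3 arrays of each group. Alas2, the first enzyme of haem synthesis in red cell precursors, named after its values were seen, was at 7.67, 12.87 and 9.95 in iCM-Ex, 6.83, 9.68 and 7.07 in iCM and 5.86, 6.77 and 7.83 in saline. The part of red cell RNA in the Car2 difference was not tested. In these bulk samples, fewer cells of a type and less RNA per cell cannot be told apart.

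Car3 depended on single arrays. It is a slow enzyme that is very abundant in fat cells and in slow skeletal muscle fibres. Its signal was 7.11, 5.29 and 10.97 in iCM-Ex, 9.19, 17.00 and 5.63 in iCM and 7.25, 7.76 and 4.48 in saline. The 3 highest values were on the 3 arrays with markers of other tissues. The fat hormone gene Adipoq was at 5.06, 4.13 and 7.21 in iCM-Ex, 8.19, 12.75 and 4.27 in iCM and 5.08, 6.26 and 4.32 in saline, and so was likewise highest on those 3 arrays. This held for 3 of the 13 adipocyte genes (Adipoq, Cidec and Lep), while 10 of the 13 were highest on iCM replicate 2. The adipocyte mean was 6.83 on iCM-Ex replicate 3 and 6.80 on iCM replicate 1, below the 6.96 of iCM replicate 3, where Car3 was at 5.63. Myh4, a myosin of fast skeletal muscle, was at 15.77 in iCM replicate 2 and between 3.41 and 5.03 elsewhere, and Ucp1, the heat-producing protein of brown fat, at 9.31 there and between 3.22 and 3.96 elsewhere. Adipoq, Myh4 and Ucp1 were named after their values were seen.

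The Car3 difference was 1.29 ± 2.44 for iCM-Ex minus saline, 4.11 ± 2.44 for iCM minus saline and −2.82 ± 2.44 for iCM-Ex minus iCM, none called (limma adjusted p = 0.85, 0.376 and 0.679). Without iCM replicate 2 the iCM difference was 0.91, and without iCM-Ex replicate 3 the iCM-Ex difference was −0.30. The part of fat or muscle RNA in the Car3 values was not tested.

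**Figure D3:**
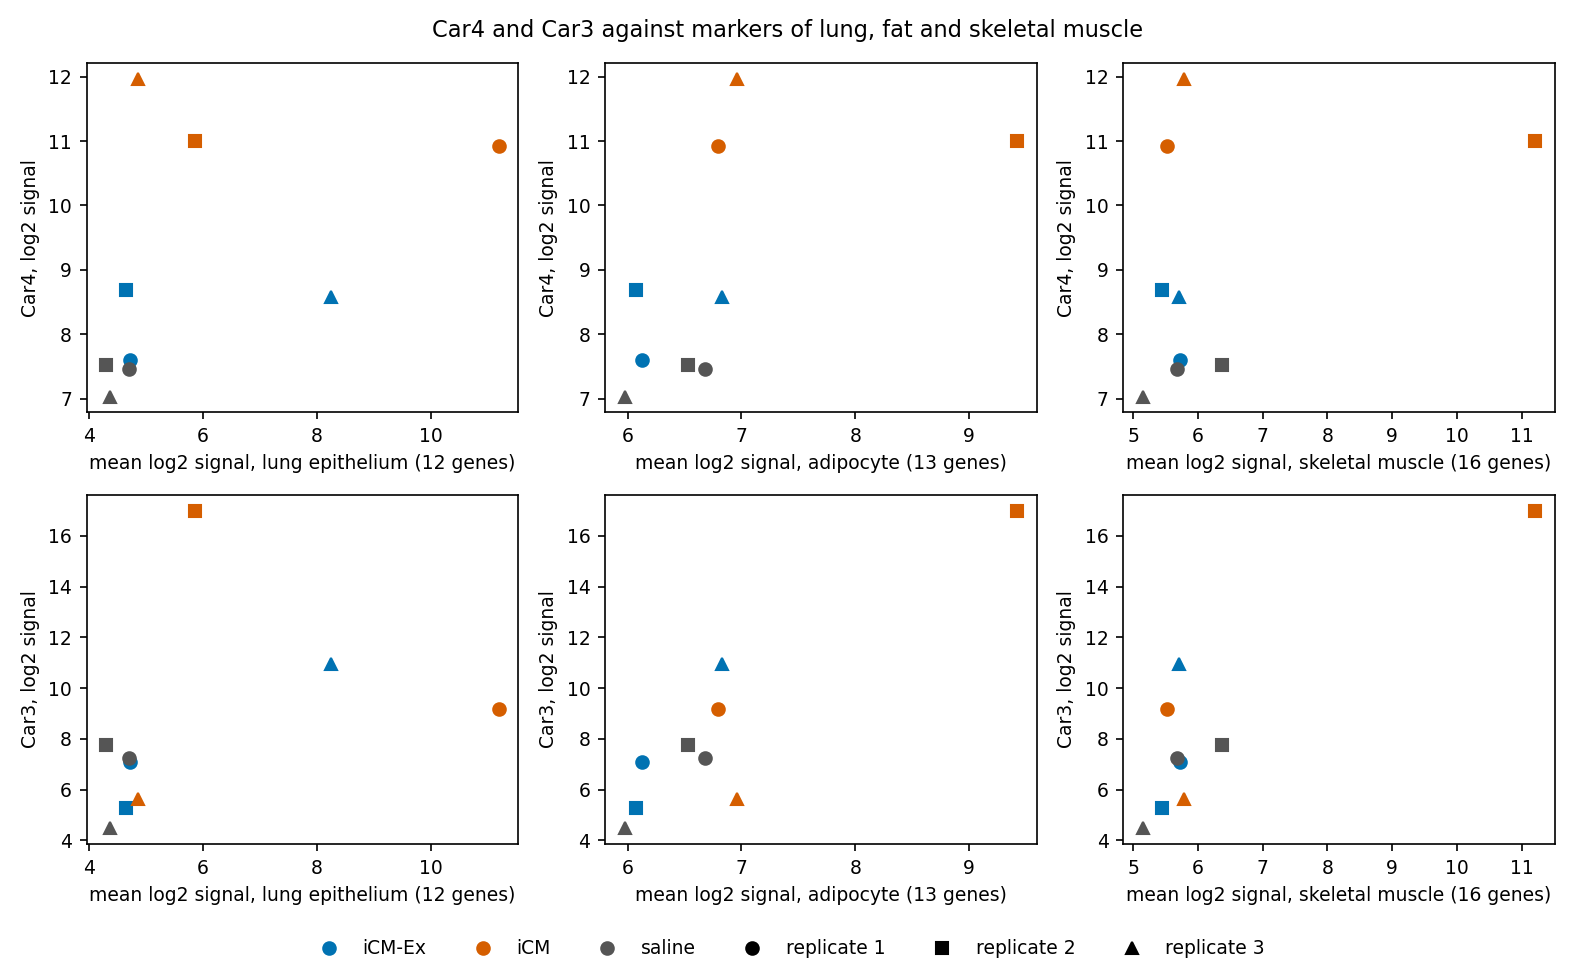
Log2 signal of Car4 (top row) and Car3 (bottom row) against the mean log2 signal of lung epithelium, adipocyte and skeletal muscle genes on the 9 arrays, coloured by group with symbols for replicates. The iCM array with the highest Car4 signal, 11.96, has a lung mean of 4.86 and an adipocyte mean of 6.96. The highest Car3 signal, 17.00, is on the array with the highest adipocyte and skeletal muscle means, 9.42 and 11.21. The other iCM arrays, with Car4 at 10.92 and 11.00, are those with lung markers and with fat and muscle markers.

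Car13, a cytosolic form found in many tissues, was at 8.93, 8.67 and 8.28 in iCM-Ex, 7.56, 8.46 and 7.03 in iCM and 5.74, 8.04 and 8.35 in saline. Saline replicate 1 was far below the other arrays, and saline replicate 3 lay above the lowest iCM-Ex array. The difference was 1.25 ± 0.63 for iCM-Ex minus saline (limma adjusted p = 0.387) and 0.43 without saline replicate 1. For iCM minus saline it was 0.31 ± 0.63, and for iCM-Ex minus iCM 0.94 ± 0.63, neither called.

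Car13, Car1, Car3 and Car2 are neighbours on chromosome 3, within 259.0 kb from 14641727 to 14900770. Over the 9 arrays, which include the 3 with markers of other tissues, the Pearson correlation of log2 signal between these neighbours was 0.637 for Car1 and Car3, 0.57 for Car2 and Car13 and 0.416 for Car2 and Car3. It was 0.161 for Car3 and Car13, 0.034 for Car1 and Car2 and −0.121 for Car1 and Car13. Pairs of these genes with members on other chromosomes ran from −0.455 (Car8 and Car13) to 0.758 (Car3 and Car12), so the neighbours did not stand apart. On iCM replicate 2 all 4 exceeded their saline maxima, Car3 at 17.00 beside 7.76, Car2 at 7.19 beside 6.02, Car13 at 8.46 beside 8.35 and Car1 at 4.55 beside 4.39. Car1 lay below the negative control median of that array, 5.56. The same held on that array for Car4, Car5b, Car9 and Car12, which lie on other chromosomes, in that they exceeded their saline maxima. Car8 and Car14 did not.

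The mitochondrial enzyme gene Car5b (X chromosome, 163976822 to 164028010) was at 6.46, 6.40 and 5.83 in iCM-Ex, 5.96, 7.96 and 5.44 in iCM and 6.83, 6.21 and 6.74 in saline. The groups overlapped, and the highest value was on iCM replicate 2. Its difference was −0.36 ± 0.56 for iCM-Ex minus saline, −0.14 ± 0.56 for iCM minus saline and −0.22 ± 0.56 for iCM-Ex minus iCM, none called (limma adjusted p = 0.813, 0.916 and 0.916).

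Car8 (chromosome 4, 8141493 to 8239041), which binds the inositol trisphosphate receptor in cerebellar neurons, was at 5.61, 8.17 and 8.90 in iCM-Ex, 9.22, 7.08 and 8.74 in iCM and 8.01, 7.50 and 7.04 in saline. The lowest value was on iCM-Ex replicate 1 and the highest on iCM replicate 1. The difference was 0.05 ± 0.80 in iCM-Ex and 0.83 ± 0.80 in iCM against saline, and −0.79 ± 0.80 for iCM-Ex minus iCM, none called (limma adjusted p = 0.986, 0.599 and 0.735).

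The other 6 carbonic anhydrase genes of the array (Car5a, Car6, Car7, Car10, Car11 and Car15) had 0 members called by limma in each contrast. It called at most 3.67% of all genes in any of these contrasts. The median change of the 6 was −0.12 in iCM-Ex and −0.001 in iCM against saline, and −0.11 for iCM-Ex minus iCM. Car11, which encodes a secreted relative without enzyme activity, was at 7.15, 7.06 and 7.05 in iCM-Ex, 6.13, 4.89 and 6.11 in iCM and 6.62, 7.80 and 7.92 in saline. Every iCM array was below every other array, and the difference was −1.74 ± 0.43 against saline (limma adjusted p = 0.0553). It would be called after quantile normalisation (limma adjusted p = 0.0342), with only genes above the median level (0.0455) and without saline replicate 1 (0.0332), and was −0.91 with control separation as a covariate (0.463). For iCM-Ex minus iCM it was 1.38 ± 0.43 (limma adjusted p = 0.159). Car7, a cytosolic form known from neurons, was at 5.61, 5.72 and 4.93 in iCM-Ex, 5.41, 5.65 and 6.36 in iCM and 6.76, 6.64 and 6.01 in saline. Its difference was −1.05 ± 0.36 in iCM-Ex (limma adjusted p = 0.209) and −0.66 ± 0.36 in iCM (0.329). At an unadjusted p under 0.05, Car7 in iCM-Ex minus saline and Car11 in the contrasts with iCM passed, again without a count over all genes. Car6, a secreted salivary form, differed by 0.38 ± 0.27 in iCM-Ex (limma adjusted p = 0.559).

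Carriers that work beside these enzymes were examined as lists. Of 11 measured bicarbonate transport genes limma called 0 in each contrast. Over all genes it called 0.349% for iCM-Ex minus saline, 3.67% for iCM minus saline and 1.07% for iCM-Ex minus iCM. At such shares, 0 calls in a short list say little about it. The median changes of the 11 were 0.29 in iCM-Ex and 0.27 in iCM against saline and 0.01 for iCM-Ex minus iCM. Slc4a1, the chloride-bicarbonate exchanger of red cells, was at 9.19, 8.97 and 8.48 in iCM-Ex, 8.48, 9.22 and 8.39 in iCM and 6.60, 8.26 and 6.89 in saline. All treated arrays lay above the saline arrays, as for Car2, with differences of 1.63 ± 0.45 in iCM-Ex and 1.45 ± 0.45 in iCM (limma adjusted p = 0.13 and 0.101). Slc4a9 differed by 0.88 ± 0.29 in iCM-Ex (limma adjusted p = 0.187), near background. Slc4a8, a sodium-driven exchanger, differed by 0.83 ± 0.37 for iCM minus saline and by −1.09 ± 0.37 for iCM-Ex minus iCM (limma adjusted p = 0.235 and 0.189). Slc4a3, the main anion exchanger of heart muscle, differed by −1.48 ± 0.58 for iCM-Ex minus iCM (limma adjusted p = 0.268).

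Proton and lactate transport genes, 12 measured, also had 0 called by limma in each contrast, where it called at most 3.67% of all genes. The median change of the 12 was 0.15 in iCM-Ex and −0.41 in iCM against saline, and 0.79 for iCM-Ex minus iCM. Bsg, the chaperone that brings lactate carriers to the membrane, was at 17.56, 18.55 and 19.41 in iCM-Ex, 16.03, 15.45 and 17.01 in iCM and 17.64, 17.93 and 18.28 in saline. The 3 iCM arrays were the lowest, opposite to Car4, with differences of −1.79 ± 0.51 for iCM minus saline (limma adjusted p = 0.0812) and 2.34 ± 0.51 for iCM-Ex minus iCM (0.0615). Slc16a3, a lactate exporter, differed by 1.57 ± 0.58 for iCM-Ex minus iCM (limma adjusted p = 0.238). Hvcn1, a proton channel of leukocytes, differed by 1.26 ± 0.33 for iCM-Ex minus saline (limma adjusted p = 0.117) and Emb, a partner of lactate carriers, by 2.02 ± 1.04 (0.399). Chp1, a cofactor of sodium-proton exchangers, differed by −0.97 ± 0.32 for iCM minus saline (limma adjusted p = 0.12).

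Of 21 measured hypoxia-inducible genes, the group to which Car9 belongs, 2 rose in iCM relative to saline and none fell, in a contrast where limma called 3.67% of all genes. Vegfa, the main endothelial growth factor, was at 10.01, 9.70 and 9.34 in iCM-Ex, 10.94, 11.26 and 12.48 in iCM and 9.60, 9.44 and 9.47 in saline, and rose by 2.05 ± 0.39 in iCM (limma adjusted p = 0.0236). Higd1a, a mitochondrial protein induced by low oxygen, was at 9.76, 9.76 and 10.12 in iCM-Ex, 9.89, 10.38 and 11.37 in iCM and 8.77, 8.88 and 8.04 in saline, and rose by 1.99 ± 0.40 in iCM (limma adjusted p = 0.0269). As for Car4, the highest value of each was on iCM replicate 3. Vegfa lost its call without saline replicate 2, saline replicate 3 or iCM replicate 2, and Higd1a without these or iCM replicate 3 (highest limma adjusted p = 0.0908 and 0.0779, both without saline replicate 2). Limma called 0 of the list in the other contrasts, where Egln3 and Egln1, the oxygen-sensing prolyl hydroxylases, had the smallest p for iCM-Ex minus saline (−3.61 ± 0.87 and −2.43 ± 0.67, limma adjusted p = 0.102 and 0.131). Egln3 was at 9.61, 11.31 and 11.34 in iCM-Ex, 9.80, 9.71 and 12.78 in iCM and 15.58, 14.27 and 13.24 in saline, and its difference in iCM was −3.60 ± 0.87 (limma adjusted p = 0.0505), larger than the rises of Vegfa and Higd1a. For iCM-Ex minus iCM, Vegfa differed by −1.87 ± 0.39 and Pfkfb3, a regulator of glycolysis, by −2.01 ± 0.96 (limma adjusted p = 0.0559 and 0.38). The list's median was 0.10 in iCM-Ex and 0.23 in iCM against saline, and −0.22 for iCM-Ex minus iCM.

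**Figure D4:**
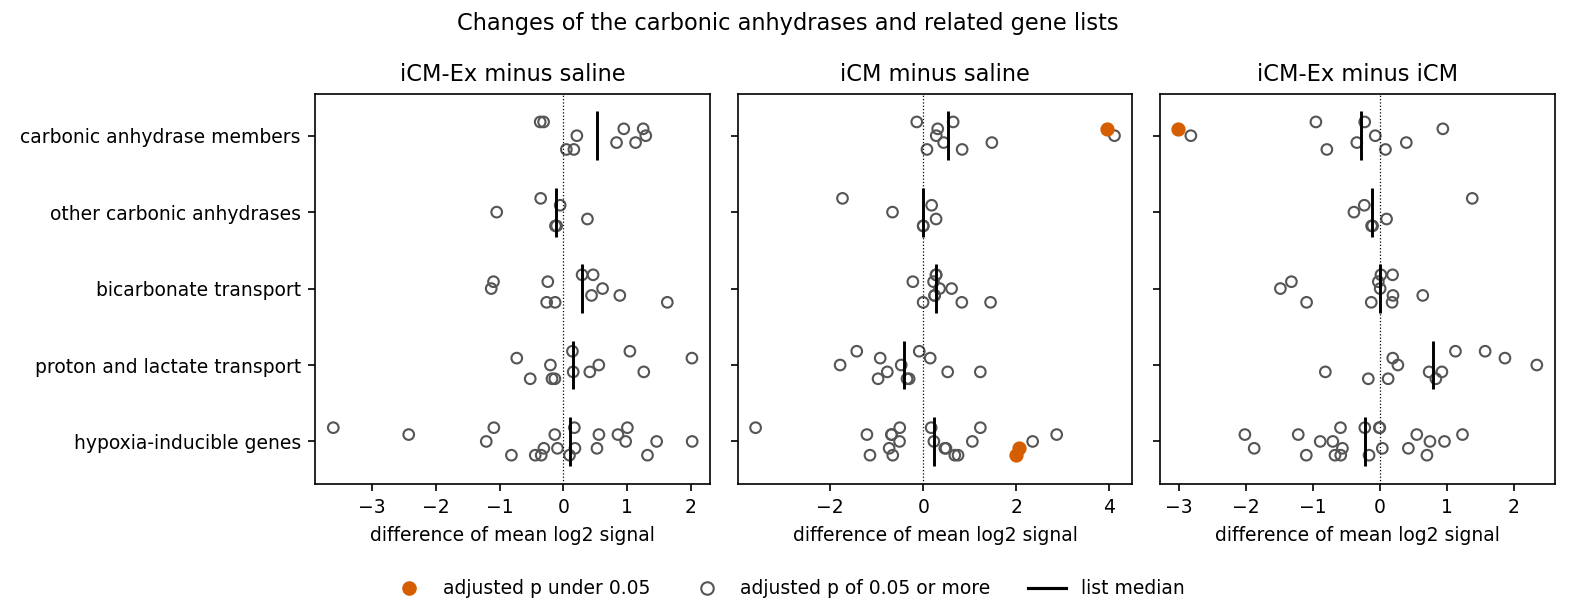
Difference of mean log2 signal (x axis) for the genes of 5 lists (y axis) in the 3 contrasts, with a bar at each list's median and filled orange points for genes with an adjusted p under 0.05. Car4 is the filled carbonic anhydrase point at 3.96 in iCM minus saline and at −3.01 in iCM-Ex minus iCM, and Vegfa and Higd1a are the filled hypoxia-inducible points at 2.05 and 1.99.

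Because Car4 marks capillaries, markers of capillary endothelium were set beside it. Of 20 such genes, all measured, limma called 1 risen and 1 fallen in iCM relative to saline, 0 in iCM-Ex relative to saline and 1 fallen in iCM-Ex relative to iCM. Over all genes, the shares called in these contrasts were 3.67%, 0.349% and 1.07%. The mean of the 20 genes was 9.63 to 10.68 in iCM-Ex, 10.76 to 11.28 in iCM and 10.58 to 10.88 in saline. Against saline the changes of these genes in iCM ran from −2.89 to 2.91, with a median of 0.13. At an unadjusted p under 0.05, 5 were higher in iCM than in saline (Aqp1, Gpihbp1, Rgcc, Fabp4 and Ly6c1) and 1 was lower (Eng). In iCM-Ex relative to saline 1 was higher (Fabp4) and 6 were lower (Cdh5, Kdr, Flt1, Meox2, Btnl9 and Aqp7). In iCM-Ex relative to iCM 1 was higher (Eng) and 7 were lower (Pecam1, Cdh5, Flt1, Aqp1, Fabp4, Meox2 and Btnl9). The list medians of these 2 contrasts were −0.40 and −0.88, beside 0.04 and −0.04 over all genes. The share of all genes at that unadjusted p was not counted, so whether these counts are many cannot be told. Fabp4, a fatty acid carrier of capillaries and fat, was at 16.10, 17.23 and 17.75 in iCM-Ex, 17.29, 19.86 and 18.33 in iCM and 15.35, 15.66 and 15.72 in saline, and rose by 2.91 ± 0.61 in iCM (limma adjusted p = 0.0306). Its 19.86 on iCM replicate 2, the array with fat markers, was the highest value of that array, so the size of the rise is uncertain. Eng, a TGF-beta co-receptor of endothelium, fell by 2.89 ± 0.67 in iCM (limma adjusted p = 0.0443).

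Aqp1, a water channel of capillaries and red cells that also passes carbon dioxide, followed the order of Car4 between the treatments. It was at 10.88, 11.40 and 10.97 in iCM-Ex, 12.32, 13.29 and 13.90 in iCM and 11.70, 11.92 and 11.58 in saline. It fell by 2.09 ± 0.38 in iCM-Ex relative to iCM (limma adjusted p = 0.0386), and was 1.43 ± 0.38 higher in iCM than in saline (limma adjusted p = 0.0684), not called. In contrast to Car4, every iCM-Ex array lay below the saline arrays. The general endothelial genes Pecam1 and Cdh5, named after their values were seen, were at 11.24, 11.20 and 11.01 and at 12.17, 12.52 and 12.15 in iCM-Ex, at 12.11, 11.58 and 12.41 and at 13.17, 13.55 and 13.72 in iCM, and at 11.44, 12.02 and 11.81 and at 13.52, 13.26 and 13.47 in saline. For both genes the iCM and saline arrays overlapped. Gpihbp1, which anchors lipoprotein lipase on capillaries, was at 8.32, 9.76 and 10.47 in iCM-Ex, 8.44, 10.95 and 11.78 in iCM and 8.17, 7.70 and 9.16 in saline. Its difference in iCM was 2.04 ± 0.82, and that of Ly6c1, a surface antigen of endothelium and monocytes, 1.27 ± 0.51 (limma adjusted p = 0.192 and 0.188), neither called. Gpihbp1 and Ly6c1 were also named after their values were seen. The part of capillary content in the Car4 difference was not tested. Of the called genes of this list, Fabp4 lost its call on removal of any of 6 single arrays, Eng of any of 7 and Aqp1 of any of 6, with highest limma adjusted p of 0.0988, 0.131 and 0.205.

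In lung, Car4 also marks a set of capillaries, and 10 of 12 listed genes of lung capillary endothelium were measured. Limma called 0 of them in each contrast, where it called at most 3.67% of all genes. The mean of the 10 was 7.10 to 7.38 in iCM-Ex, 7.17 to 8.39 in iCM and 7.28 to 7.66 in saline, highest on iCM replicate 1. On iCM replicate 3, the array with the most Car4, it was 7.17, below every saline array. Single genes went both ways. In iCM relative to saline 3 of the 10 were higher. Foxf1 (1.46 ± 0.42) and Tbx2 (0.96 ± 0.34) were higher on every iCM array than on any saline array, and Apln (−0.28 ± 0.24) was lower. These genes were named after their values were seen, and none was called. The part of lung capillary RNA in the Car4 difference was not tested.

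The remaining marker lists had few or no called genes. Limma called 0 of 12 cardiomyocyte, 12 lung epithelium, 13 adipocyte and 11 fibroblast genes in each contrast. It called at most 3.67% of all genes, so 0 calls in a short list say little about it. Some lists shifted as a whole, which was not tested. In iCM relative to saline, all 12 lung epithelium and all 13 adipocyte genes were higher (median changes 2.62 and 1.01). There 0 of 11 fibroblast genes were higher (−1.19). In iCM-Ex relative to saline, all 12 lung epithelium and all 11 macrophage genes were higher. In iCM-Ex relative to iCM, all 11 fibroblast genes were higher (1.64). Of 16 skeletal muscle genes Tnnt1, the troponin of slow fibres in which Car3 is abundant, rose in iCM-Ex and in iCM relative to saline, by 2.39 ± 0.36 and 2.57 ± 0.36 (limma adjusted p = 0.0374 and 0.00854). It was at 8.36, 8.24 and 8.19 in iCM-Ex, 7.76, 9.25 and 8.32 in iCM and 5.68, 5.84 and 6.10 in saline, and so did not follow Car3. Its iCM call held whichever array was left out, and its iCM-Ex call ended on removal of any of 6 single arrays, with a highest limma adjusted p of 0.202 without iCM-Ex replicate 3. Rhag, the ammonium and carbon dioxide channel of the red cell membrane, rose by 1.13 ± 0.25 in iCM (limma adjusted p = 0.0383) and lay below the negative controls, at 4.30, 4.20 and 4.03 in iCM-Ex, 4.55, 4.91 and 4.61 in iCM and 3.37, 3.65 and 3.65 in saline. Of 11 macrophage genes the haemoglobin scavenger receptor Cd163 rose by 2.43 ± 0.55, and of 12 smooth muscle and pericyte genes Smtn fell by 1.52 ± 0.36, both in iCM relative to saline (limma adjusted p = 0.0418 and 0.0498). Rhag lost its call on removal of any of the 9 arrays, Cd163 of any of 7 and Smtn of any of 8.

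The genes most like Car4 over the 9 arrays, by Pearson correlation of log2 signal, were Ndufs5 (r = 0.965), Mrps31 (0.963) and Tfap4 (0.958). Ndufs5, a subunit of respiratory complex I, was at 12.80, 12.70 and 12.83 in iCM-Ex, 14.56, 15.20 and 15.85 in iCM and 11.21, 12.23 and 11.19 in saline. Its order of groups was that of Car4, and its change in iCM was 3.66. Mrps31, of the mitochondrial ribosome, and the transcription factor gene Tfap4 changed less, by 0.73 and 1.04. Tfap4 lay near background, at 4.77, 5.03 and 4.87 in saline, below the negative control medians of 5.07, 5.48 and 5.32. These correlations are descriptions picked as the highest of many genes, and arrays of a group share their treatment.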

How the data were processed

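Clariom S arrays, which carry a summarised probe set for most genes, were, per the labels' protocols, hybridised with 5.5 µg of labelled cDNA per sample. The authors deposited log2 signals, and the submitters' processing notes name Affymetrix Expression Console as the tool. The sources used here give neither its version nor its background correction or normalisation. That the scale is log2 was taken from the range of values (2.25 to 19.93).

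Of 28846 rows, 22206 were gene rows and 19572 had a symbol in the platform annotation, and a check through Entrez identifiers against RefSeq changed 0 symbols. The 2634 gene rows without a symbol were left out. The brightest row was kept for 55 genes with several, leaving 19505. The 9 arrays entered a limma fit (limma 3.58.1, R 4.3.3) with a mean per group and empirical Bayes moderation, tested on both sides. The fit was tested on simulated data. Promoter motifs were counted with Python 3.11.15. The number of arrays limits the precision, and p-values measure the spread between arrays, which the labels call biological replicates.

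The members and the 14 gene lists were chosen with earlier results of these data known. Of the pathway lists the called genes were named, or else the 2 with the smallest p. Of the marker lists the called genes were named. The genes most like Car4 were the 3 with the highest correlation, predicted genes and olfactory or vomeronasal receptors left out. Alternatives were other normalisation, filters, rows, moderation, samples, covariates, a replicate block and leaving out arrays.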

Additional observations from a re-analysis of the deposited data

How the results depend on the processing

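Over 19 alternative settings, Car4 rose in iCM relative to saline by 3.62 to 4.63 and was called in 18. For iCM-Ex minus iCM its change was −3.82 to −2.66, called in 12. For iCM-Ex minus saline it was 0.74 to 1.29, called in 0. Of the 10 members, the count called for iCM minus saline was 1, was 2 under quantile normalization, which added Car2, and 0 without the 3 arrays with lung, fat or muscle markers, where the F test also called 0. For iCM-Ex minus iCM it was 1, and 0 in the fit of only the 2 groups compared, with the replicate block, with a covariate for control separation, and without the 3 or the 2 arrays with such markers (the last chosen after seeing the data). Leaving out single arrays gave 0 to 1 for iCM-Ex minus iCM, and 1 for iCM minus saline and for the F test.

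Of 561 member values under the alternatives none changed sign while called, 49 changed sign without being called in either fit, 8 (all Car4) lost the call and 1 (Car2) gained it. Of 602 values of other named genes, 103 lost and 9 gained a call. Of the 173 measured genes of the lists, 1 was called for iCM-Ex minus saline, 8 for iCM minus saline and 1 for iCM-Ex minus iCM. Quantile normalization gave 2, 10 and 5, as did keeping genes above the median level, and using all rows but controls gave 2, 7 and 1. The trended prior gave 0, 8 and 0, the fit of only the 2 groups compared 0, 1 and 0, the replicate block 0, 3 and 0, and leaving out the 2 arrays with high lung markers 0, 9 and 0. All 3 counts were 0 with the covariate and without the 3 arrays with markers of other tissues. Leaving out single arrays gave 0 to 4, 1 to 12 and 0 to 11. The cause was not tested.

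Same-numbered arrays deviated from their group means with correlations of −0.257 to 0.0679. Arrays with different numbers were not compared, so whether a replicate number stands for a shared batch or pairing cannot be told from these values. With the replicate block the Car4 changes were as before, with limma adjusted p of 0.331, 0.0197 and 0.0527 for iCM-Ex minus saline, iCM minus saline and iCM-Ex minus iCM. Quantile normalization moved the share of called genes that were higher to 48.6%, from 36.6%, for iCM minus saline and to 53.2%, from 74.5%, for iCM-Ex minus iCM. Over all genes, calls numbered 68, 716 and 208 in the 3 contrasts, 12, 593 and 118 with the trended prior, 1, 279 and 13 with only the 2 groups compared, 0, 338 and 18 with the replicate block, 5, 33 and 0 with control separation, and 0, 6 and 0 without the 3 arrays with markers of other tissues. Leaving out single arrays moved them to 0 to 163, 126 to 803 and 0 to 401, with the 0 for iCM-Ex minus iCM without iCM-Ex replicate 2. Signals near the negative controls limit what could be seen of Car1, Car9 and Car12.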
